A study of Mus musculus with 6 samples.

Results

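The high-numbered Zfp genes are the mouse zinc finger genes named Zfp with a 3-digit number of 700 or above. They were chosen by symbol alone: 127 symbols of the count table matched, and 124 of them were among the 16911 genes that the authors marked as kept. The 3 matching genes that were not kept, Zfp735, Zfp957 and Zfp968, were not analysed further, and all 124 kept genes passed the count filter used for the tests. RNA was measured in whole testes at postnatal day 12 (PND12), when the first germ cells enter prophase I of meiosis. The cKO group (n = 3 mice) carried a floxed and a null allele of Tardbp, the gene of the DNA- and RNA-binding protein TDP-43, together with Stra8-iCre, a Cre recombinase driven by the Stra8 promoter in germ cells that removes exon 3 of the floxed allele. The null allele is carried by every cell of these mice. The WT group (n = 3 mice) is given as wild type. Read so, it held neither Cre nor the floxed allele, which the paper does not state for these mice. The labels give C57BL/6 as the strain throughout. Each mouse gave 1 stranded poly(A) library, with 31713911 to 43371284 counts in cKO and 30028685 to 33099581 counts in WT. The library cKO_1 and the 3 WT libraries belonged to batch 2 of the labels, and cKO_2 and cKO_3 to batch 1, which holds no WT library.

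Proteins of this family bind DNA through C2H2 zinc fingers, and many also carry a KRAB domain. A KRAB domain recruits the corepressor TRIM28, which brings the histone methyltransferase SETDB1 and other silencing factors to the bound site. KRAB zinc finger genes have multiplied by tandem duplication, so many lie in clusters of similar copies, and many of their proteins are known to silence retrotransposons in early embryos and germ cells. From the translated GENCODE vM39 transcripts, 98 of the 124 members were classed as KRAB and 22 as without KRAB. For 4 members no protein was found: Zfp783, Zfp939 and Zfp996 are annotated as pseudogenes, and Zfp781 was not in GENCODE by its symbol. The best window held 17 to 40 residues of the 40 of the KRAB query in the KRAB class, against 5 to 11 in the class without KRAB. The proteins with KRAB had a median of 11 C2H2 fingers, against 6 in those without. Of the 98 genes with KRAB, 66 had at least 5 other genes with 5 or more fingers within 500 kb, and 4 of the 22 without KRAB did. The 123 members with a position lay on 16 chromosomes, led by chromosome 7 with 25 members, chromosome 17 with 21, and chromosomes 4 and 8 with 14 each.

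The promoters of the 2 classes are described by their CG dinucleotides and TG repeats. The RefSeq promoter windows held 300 bases, 250 before the start given by RefSeq and 50 after it, and matched 108 members. That start can differ from the GENCODE start, and the Zfp771 window lies inside the GENCODE gene. Where a gene had several windows, the window with the most CG dinucleotides was kept, for members and all kept genes alike. The median number of CG dinucleotides was 9 in 89 genes with KRAB and 24 in 15 genes without KRAB, against 21 over 13134 kept genes. TDP-43 is known to bind TG repeats. The letters TGTGTG, searched on both strands, where CACACA is the reverse complement, stood in 27 of the 89 promoters with KRAB (30.3%) and in 1 of the 15 without (6.67%), against 15.5% of all 13134. Such a match is a description of the letters and not a binding site. The promoters of 4 members are shown because the results turn on them: Zfp949 had the largest increase, Zfp945 lies in a cluster whose levels differed between cKO libraries, and Zfp771 and Zfp770, both without KRAB, were higher and lower in cKO. They are RefSeq sequences from a GRCm38.p6 table, found by exact match in GRCm39 at chr9:88429823-88430122 (plus strand) for Zfp949, chr17:23086059-23086358 (minus strand) for Zfp945, chr7:126843448-126843747 (plus strand) for Zfp771 and chr2:114031864-114032163 (minus strand) for Zfp770. Capitals mark CG dinucleotides, of which the promoters hold 6, 7, 25 and 18 in this order.
Zfp949: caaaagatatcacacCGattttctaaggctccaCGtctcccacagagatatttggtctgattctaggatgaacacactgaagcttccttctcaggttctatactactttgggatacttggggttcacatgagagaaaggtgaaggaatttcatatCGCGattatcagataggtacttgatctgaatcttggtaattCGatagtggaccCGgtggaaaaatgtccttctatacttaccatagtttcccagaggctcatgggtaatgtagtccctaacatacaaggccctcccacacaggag
Zfp945: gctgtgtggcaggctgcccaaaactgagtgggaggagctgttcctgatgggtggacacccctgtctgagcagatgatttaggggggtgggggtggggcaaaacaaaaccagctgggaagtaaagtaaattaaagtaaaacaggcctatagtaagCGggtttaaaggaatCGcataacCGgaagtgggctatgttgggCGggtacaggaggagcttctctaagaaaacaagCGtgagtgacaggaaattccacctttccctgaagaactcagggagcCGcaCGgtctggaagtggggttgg
Zfp771: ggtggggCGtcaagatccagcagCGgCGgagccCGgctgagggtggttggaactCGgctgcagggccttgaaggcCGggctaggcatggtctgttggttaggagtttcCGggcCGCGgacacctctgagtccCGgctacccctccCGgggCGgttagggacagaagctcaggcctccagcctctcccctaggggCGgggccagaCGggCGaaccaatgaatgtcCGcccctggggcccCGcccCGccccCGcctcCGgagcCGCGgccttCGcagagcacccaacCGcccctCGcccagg
Zfp770: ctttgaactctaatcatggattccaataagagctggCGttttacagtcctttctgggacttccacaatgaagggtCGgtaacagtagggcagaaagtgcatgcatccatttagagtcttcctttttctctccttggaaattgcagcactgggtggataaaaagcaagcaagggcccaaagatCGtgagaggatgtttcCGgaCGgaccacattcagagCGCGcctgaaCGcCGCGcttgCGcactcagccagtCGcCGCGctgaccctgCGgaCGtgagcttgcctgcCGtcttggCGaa

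Reads of similar copies are shared between genes by the counting method, so values of near-identical members are uncertain. Of the 31-base words of each member's transcripts, a median of 7.9% was also found in transcripts of another gene. The share was at least 50% in 19 members and under 20% in 81. A further uncertainty is that 13 members overlap another protein-coding gene on the same strand and 22 overlap one on the opposite strand in GENCODE. Overlaps with genes of other types were not counted. The libraries were stranded, but whether strand was used in the counting is not given in the sources used here. Values below are log2 CPM from the authors' table (CPM: counts scaled to the library total, with TMM normalization), and they do not correct for gene length, so levels are compared between libraries and not between genes. The WT mean of the members ran from -0.41 to 7.24 with a median of 4.12. The SD of the 3 WT libraries had a median of 0.11 over the members.

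The libraries were first checked with Tardbp, which lies on chromosome 4 from 148696839 to 148711490. Its level was 8.0, 6.81 and 7.10 log2 CPM in cKO_1, cKO_2 and cKO_3, against 8.32, 8.38 and 8.29 in WT. The cKO libraries were all below the WT libraries, and cKO_1 was the nearest to WT. In the model of batch and genotype, the main test here, Tardbp had a log2 fold change of -0.33 with a standard error of 0.125 (adjusted p = 0.107 from edgeR), and cKO_2 and cKO_3 were lower than cKO_1 by the batch term of that model (log2 difference -1.04, adjusted p = 0.00181 from edgeR). The summed levels of cell type markers also moved with genotype. The summed level of 20 markers of early spermatocytes was 785, 475 and 223 CPM in cKO_1, cKO_2 and cKO_3, against 3130, 4150 and 3210 CPM in WT, with all 20 lower in cKO by edgeR. The summed level of 16 Sertoli cell markers was 10600, 16100 and 17500 CPM in the cKO libraries, against 7970, 7100 and 8170 CPM in WT, with 11 higher and 0 lower (0 lower also at an unadjusted p under 0.05 and by DESeq2). In whole testis, fewer cells of a type and less RNA per cell cannot be told apart.

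Most members with KRAB lay below the WT mean in cKO_2 and cKO_3, while more of them lay above it than below it in cKO_1. The median difference of the 124 members from the WT mean was 0.18 in cKO_1, -0.67 in cKO_2 and -0.52 in cKO_3 on the log2 scale, where the medians over all kept genes were 0.02, 0.01 and 0.04. The 98 genes with KRAB had medians of 0.20, -0.76 and -0.68 in cKO_1, cKO_2 and cKO_3. The 22 genes without KRAB had medians of 0.13, 0.35 and 0.30. Of the genes with KRAB, 68 lay above the WT mean in cKO_1, 13 in cKO_2 and 12 in cKO_3. The plot of differences by library shows that the 2 classes had similar medians in cKO_1 and medians of opposite sign in cKO_2 and cKO_3. The difference between the classes was not tested.

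**Figure D1:**
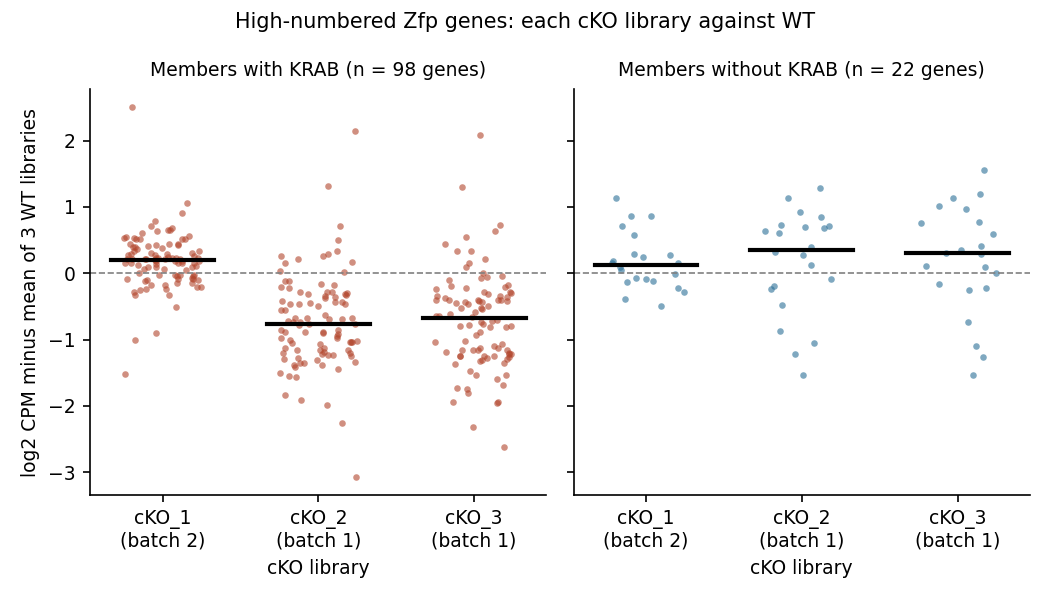
Difference of each member from the mean of the 3 WT libraries (log2 CPM, vertical axis) in each cKO library (horizontal axis), for 98 members with KRAB on the left and 22 without KRAB on the right. Points are genes and bars are medians, which stand at 0.20, -0.76 and -0.68 with KRAB and at 0.13, 0.35 and 0.30 without KRAB in cKO_1, cKO_2 and cKO_3.

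The genotype comparison asked which members differed between cKO and WT. With no WT mouse in batch 1, the genotype coefficient of the model of batch and genotype compares cKO_1 with the 3 WT mice, and cKO_2 and cKO_3 enter it only through the estimate of spread. The test is thus of 1 cKO library, which is assumed to vary like the others, and it has no replicate of the cKO group. That library had the Tardbp level nearest to WT, and Tardbp itself did not pass this test (log2 fold change -0.33). By this test 12 members were higher (9.68%) and 4 were lower (3.23%) in cKO_1 than in WT, where 6.91% of all 16632 genes tested were higher, 9.24% were lower and 16.2% were called in either direction at an adjusted p under 0.05. The other 108 members did not pass, and the median log2 fold change was 0.18 over the members and 0.01 over all genes tested. Of the 98 members with KRAB 7 were higher and 2 were lower, and of the 22 without KRAB 5 were higher and 2 were lower. In 7 of the 12 higher members all 3 cKO libraries lay above all WT libraries, and in each of the 4 lower members all 3 lay below. The other 5 higher members, Zfp760, Zfp945, Zfp970, Zfp982 and Zfp991, were above WT in cKO_1 and below all 3 WT libraries in cKO_2 and cKO_3. The number of members called depended on each WT library: without WT_1 there were 5 higher (Zfp771, Zfp827, Zfp865, Zfp949 and Zfp970), without WT_2 only Zfp949, and without WT_3 3 (Zfp827, Zfp865 and Zfp949). No member was lower in these 3 edgeR fits, where 6, 5 and 6 were lower at an unadjusted p under 0.05, and each of the 16 kept its direction at that level. Shares of all genes tested were not set beside these 3 fits, so their counts show only how the calls moved. DESeq2 on all libraries gave 15 higher and 5 lower, where 1651 of all 16632 genes tested were higher and 2205 lower. A model of genotype only, which uses all 3 cKO libraries, gave 11 higher and 11 lower, where 17.1% of all genes tested were higher, 16.7% lower and 33.8% called in either direction, and 6 of the 12 higher and all 4 lower members passed in it as well.

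Zfp949, a KRAB gene on chromosome 9 from 88430073 to 88453709 with no other gene of 5 or more fingers within 500 kb, had the largest increase of all members in every cKO library. Its level was 6.55, 6.18 and 6.12 log2 CPM in cKO_1, cKO_2 and cKO_3, against 3.89, 4.19 and 4.06 in WT. The groups lay far apart, with no overlap and little spread within each. By edgeR the log2 fold change reached 2.50 with a standard error of 0.119 (adjusted p = 6.8e-04), and 2.25 (adjusted p = 0.00547 from edgeR) in the model of genotype only. It passed the model of batch and genotype without WT_1, WT_2 or WT_3, and it was the only member to do so without WT_2. In the model of genotype only no member passed without WT_2, where 13 members were higher and 9 lower at an unadjusted p under 0.05 in edgeR.

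Next came members without KRAB. Zfp827, whose human counterpart ZNF827 recruits the NuRD remodelling complex to telomeres, stood at 6.18, 6.16 and 6.32 log2 CPM in the cKO libraries, against 5.23, 5.35 and 5.34 in WT. Zfp865 stood at 5.54, 5.97 and 6.02 in cKO, against 4.84, 4.87 and 4.79 in WT. In both genes the groups did not overlap, and cKO_1 was as high as cKO_2 in Zfp827 but the lowest of the cKO libraries in Zfp865. The log2 fold changes were 0.87 (standard error 0.105, adjusted p = 0.0141 from edgeR) for Zfp827 and 0.71 (standard error 0.0963, adjusted p = 0.0145) for Zfp865. Zfp865 overlaps Ccdc106 on its own strand and Zfp784 on the other, so part of its reads could not be assigned with certainty.

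Zfp771 and Zfp853 were above all WT libraries in each cKO library. Zfp771, whose promoter shown above is rich in CG, had 4.65, 4.70 and 4.76 log2 CPM in cKO and 3.90, 3.63 and 3.83 in WT, a log2 fold change of 0.86 (adjusted p = 0.0183 from edgeR). Zfp853 had 2.47, 1.98 and 2.49 in cKO and 1.17, 1.45 and 1.41 in WT, a log2 fold change of 1.14 (adjusted p = 0.0396 from edgeR), and cKO_2 was nearer to WT than cKO_1 and cKO_3. Zfp703, a transcriptional corepressor, had 5.91, 6.62 and 6.90 in cKO, against 5.50, 5.23 and 5.28 in WT. It was lowest in cKO_1 within the cKO group. Its log2 fold change was 0.57 (adjusted p = 0.0406 from edgeR), and cKO_2 and cKO_3 exceeded cKO_1 by a further 0.85 (adjusted p = 0.00799). Of these genes without KRAB, Zfp853 did not pass in the model of genotype only without cKO_3, and neither Zfp703 nor Zfp853 passed in the model of batch and genotype without WT_1, WT_2 or WT_3.

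Among the higher members with KRAB, Zfp871 had 6.73, 6.40 and 6.50 log2 CPM in cKO_1, cKO_2 and cKO_3, against 6.14, 6.27 and 6.12 in WT. All cKO libraries lay above WT, with cKO_1 the highest (log2 fold change 0.56, adjusted p = 0.02 from edgeR), and the gene did not pass in the model of genotype only (0.38, adjusted p = 0.0562). The other higher members with KRAB were split between the cKO libraries. Zfp970 had 5.38 in cKO_1 and 4.21 and 4.37 in cKO_2 and cKO_3, against 4.63, 4.66 and 4.48 in WT. Zfp982 had 5.16 in cKO_1 and 3.18 and 3.25 in cKO_2 and cKO_3, against 4.54, 4.51 and 4.53 in WT. Their log2 fold changes of 0.79 and 0.63 (adjusted p = 0.0174 and 0.0215 from edgeR) therefore describe cKO_1 only. In the model of genotype only their values were 0.16 and -0.35 (adjusted p = 0.689 and 0.597). Zfp970 shares 71.4% of its 31-base words with other genes and Zfp982 shares 17.1%.

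The 4 lower members were lower in all cKO libraries. Zfp850, a KRAB gene on chromosome 7 from 27683933 to 27713608, had 4.61, 3.60 and 2.89 log2 CPM in cKO_1, cKO_2 and cKO_3, against 5.49, 5.52 and 5.52 in WT. The WT libraries were nearly equal while the cKO libraries spread over more than 1 log2 unit (log2 fold change -0.90, standard error 0.24, adjusted p = 0.0455 from edgeR). Zfp770, without KRAB, had 4.87, 3.81 and 3.82 in cKO, against 5.46, 5.28 and 5.31 in WT (log2 fold change -0.49, adjusted p = 0.0405 from edgeR). Zfp786, with KRAB, had 2.06, 1.61 and 1.87 in cKO, against 2.98, 3.02 and 3.19 in WT (log2 fold change -1.02, adjusted p = 0.0371 from edgeR). Zfp800, without KRAB, had 5.99, 5.32 and 5.28 in cKO, against 6.32, 6.48 and 6.33 in WT (log2 fold change -0.39, adjusted p = 0.0484 from edgeR). None of the 4 overlapped between groups. In 3 of them, Zfp770, Zfp800 and Zfp850, cKO_2 and cKO_3 were also lower than cKO_1 by the batch term, and in Zfp786 they were not (log2 difference -0.32, adjusted p = 0.374). The 4 did not pass without WT_1, WT_2 or WT_3.

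**Figure D2:**
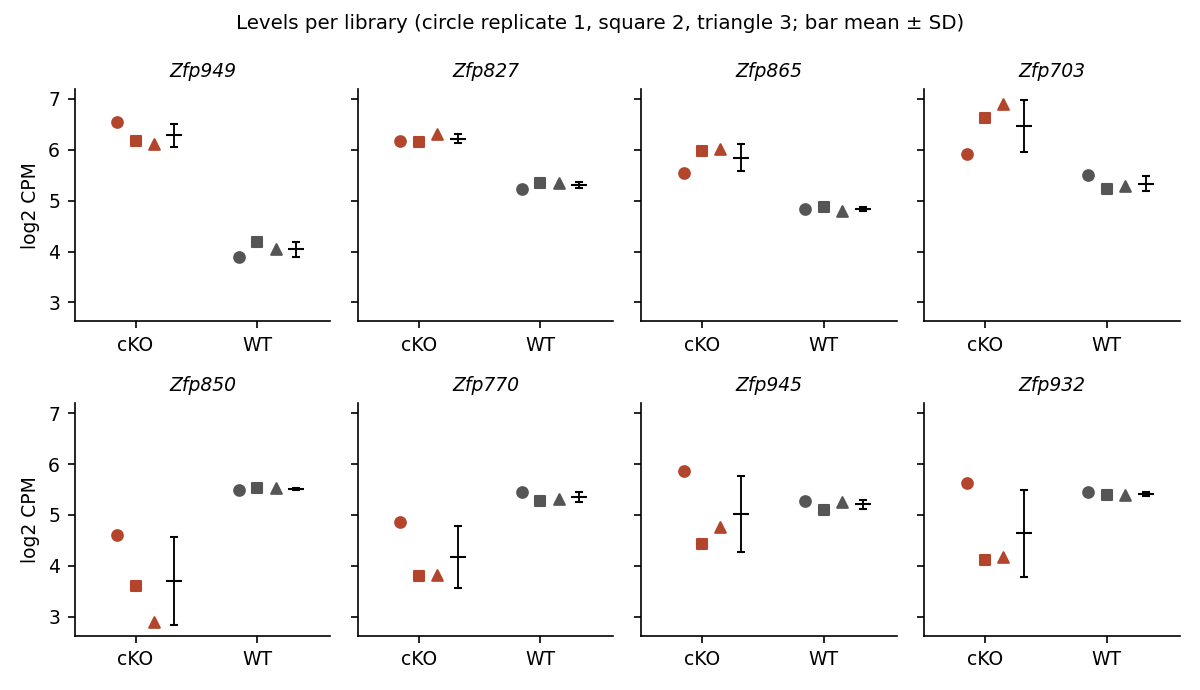
Levels of 8 members in each library (log2 CPM, vertical axis), with cKO on the left and WT on the right of each panel; bars are the mean and SD of the 3 libraries. Zfp949, Zfp827, Zfp865 and Zfp703 are higher in all cKO libraries and Zfp850 and Zfp770 lower, while Zfp945 and Zfp932 have cKO_1 above WT and cKO_2 and cKO_3 below.

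The largest group of members was neither above nor below WT in all cKO libraries. In 63 of the 124 members (50.8%) cKO_2 and cKO_3 lay below all WT libraries and cKO_1 did not, a pattern shown by 10.4% of all kept genes. All 3 cKO libraries lay above WT in 17 members (13.7%) and below WT in 23 members (18.5%), where the shares of all kept genes were 25.5% and 26.9%. In 4 members (3.23%) cKO_2 and cKO_3 alone lay above WT, against 12.7% of all kept genes. Of the 63 members with cKO_2 and cKO_3 alone below WT, 59 had KRAB, 2 had none and 2 had no protein. A second pattern used only the WT mean, with cKO_1 above it and cKO_2 and cKO_3 below it. It was seen in 57 members (46.0%), against 9.73% of all kept genes. Of the 57, 55 had KRAB, and 0 of the 22 members without KRAB showed it. These patterns were defined after the values per library were seen.

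The batch term of the model, which compares cKO_2 and cKO_3 with cKO_1, was read for the same genes. By this term 71 of 124 members were lower (57.3%) and 5 were higher (4.03%) in cKO_2 and cKO_3 than in cKO_1, where 16.2% of all genes tested were lower, 15.8% higher and 32.0% called in either direction. The 71 had log2 differences from -3.38 to -0.44, and 46 of them were at -1 or below. Of the 98 members with KRAB 65 were lower and 1 was higher, and of the 22 without KRAB 4 were lower and 4 were higher. The median log2 difference was -0.91 with KRAB and 0.07 without KRAB, against 0.00 over all genes tested. Among genes with KRAB, 19 of 27 with TGTGTG in the promoter were lower and 0 higher (median -0.88). Without these letters 40 of 62 were lower and 1 higher (median -0.92). A link between the letters and the levels was not tested. Among the 81 members with under 20% of shared words, 43 were lower and 5 higher. Batch and differences between cKO mice cannot be told apart in this contrast. The 2 libraries of batch 1 also had the lower levels of Tardbp and of the early spermatocyte markers. Of those 20 markers 9 were lower by the batch term, and of the 16 Sertoli markers 7 were higher and 2 lower. The part of these marker levels in the result was not tested.

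**Figure D3:**
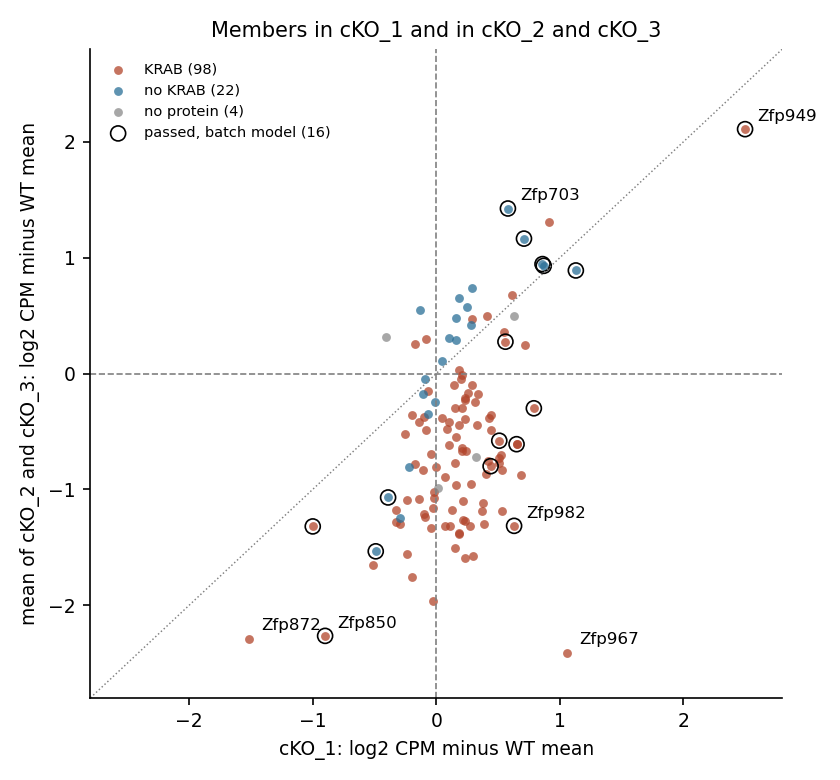
Difference from the WT mean (log2 CPM) in cKO_1 on the horizontal axis and averaged over cKO_2 and cKO_3 on the vertical axis, 1 point per member, coloured by KRAB class; circles mark the 16 members that passed the model of batch and genotype, and the dotted line marks equal differences. Of the 98 members with KRAB, 68 lie right of 0 in cKO_1, and Zfp949 stands alone at 2.50 in cKO_1.

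The clusters showed this pattern to different degrees. With members joined where they lay within 1 Mb of the next, 10 clusters held 4 or more members. Counts by the batch term in each cluster stand beside 57.3% of all members and 16.2% of all genes tested that were lower. On chromosome 17 from 21787117 to 23086292 lie 13 members, all with KRAB, from Zfp948 to Zfp945. All 13 lay above the WT mean in cKO_1 (by 0.07 to 0.65) and below all WT libraries in cKO_2 and cKO_3 (by 0.44 to 1.42 and by 0.34 to 1.31 under the WT mean). All 13 were lower in cKO_2 and cKO_3 than in cKO_1 by the batch term, with log2 differences from -1.58 to -0.78 and adjusted p from 0.000857 to 0.0214 in edgeR. Zfp945 had 5.86 log2 CPM in cKO_1 and 4.43 and 4.77 in cKO_2 and cKO_3, against 5.27, 5.10 and 5.25 in WT. Zfp944 had 5.41 in cKO_1 and 3.73 and 3.93 in cKO_2 and cKO_3, against 5.24, 5.14 and 5.06 in WT. Both genes were above every WT library in cKO_1 and below every WT library in cKO_2 and cKO_3. By the main test Zfp945 (log2 fold change 0.65, adjusted p = 0.03 from edgeR) and Zfp760 (0.51, adjusted p = 0.0488) were higher in this cluster, and in the model of genotype only neither passed, with values of -0.05 (adjusted p = 0.909) and -0.11 (adjusted p = 0.783). None of the 13 shared 50% or more of its words with another gene. Zfp942 with Zfp943 and Zfp758 with Zfp944 overlap on opposite strands, so the split of their reads is less certain.

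**Figure D4:**
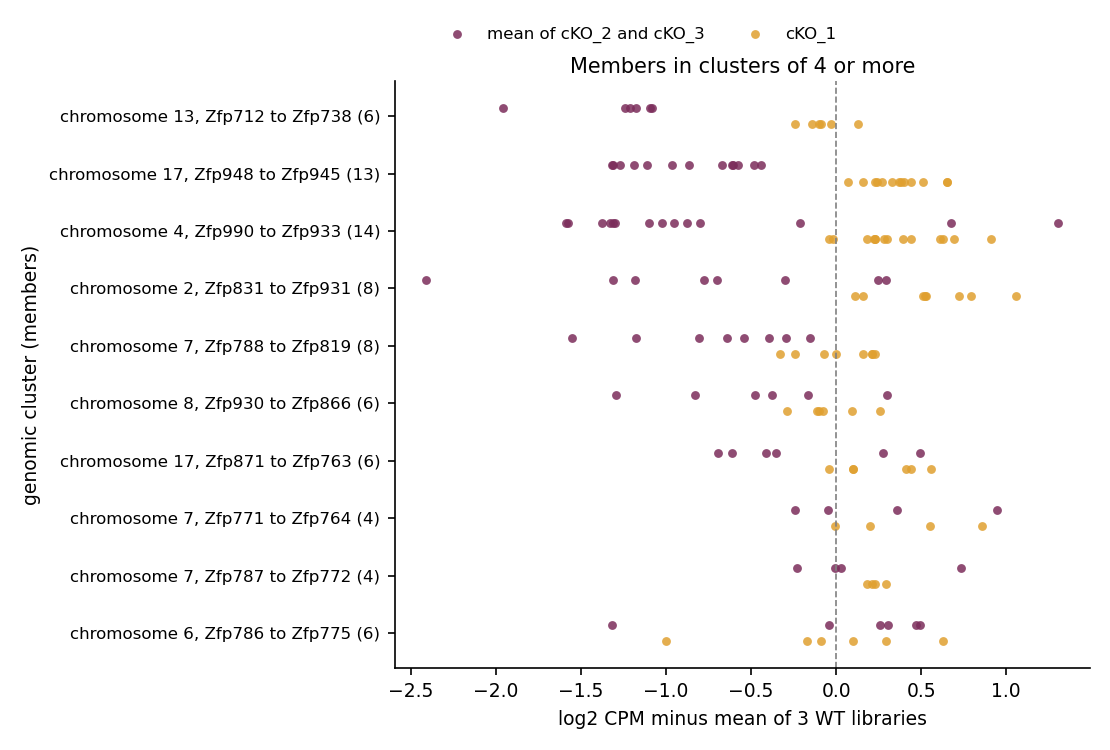
Members in the 10 clusters of 4 or more, from the lowest median in cKO_2 at the top (rows, with the number of members), plotted by their difference from the WT mean (log2 CPM, horizontal axis) as the mean of cKO_2 and cKO_3 and in cKO_1. In the cluster of 13 on chromosome 17 the 2 sets of points do not overlap, and on chromosome 6 they do.

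On chromosome 4, 14 members with KRAB lie from 145237287 to 147932882, 0.76 to 3.43 Mb from Tardbp itself. A deletion in this region in mice is known to raise the expression of some retrotransposons. By the main test Zfp982 and Zfp991 were higher and 0 were lower (0 lower also at an unadjusted p under 0.05 and by DESeq2), and by the batch term 11 of the 14 were lower in cKO_2 and cKO_3. Zfp984, 0.80 Mb from Tardbp, had 5.23 log2 CPM in cKO_1 and 3.66 and 3.68 in cKO_2 and cKO_3, against 5.10, 4.97 and 5.07 in WT. Zfp979, 0.91 Mb away, had 4.78 in cKO_1 and 2.92 and 2.89 in cKO_2 and cKO_3, against 4.42, 4.44 and 4.58 in WT. Zfp991 had 7.0 in cKO_1 and 5.68 and 5.84 in cKO_2 and cKO_3, against 6.58, 6.49 and 6.60 in WT. These genes had cKO_1 above every WT library and the other cKO libraries well below. Zfp988, Zfp992, Zfp985, Zfp987 and Zfp980 had log2 differences between cKO_2 with cKO_3 and cKO_1 of -1.80, -1.24, -1.60, -1.69 and -1.31, and Zfp933, the nearest to Tardbp, of -0.44 (adjusted p from 0.00121 to 0.0307 in edgeR).

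Not all of this cluster moved alike. Zfp981 had 3.75, 2.67 and 2.26 log2 CPM in cKO_1, cKO_2 and cKO_3, against 3.76, 3.82 and 3.81 in WT, so all cKO libraries lay below WT. Zfp990, the farthest from Tardbp, had 0.77, 0.07 and -0.53 in cKO, against 0.81, 0.60 and 0.98 in WT, and did not pass by the batch term (adjusted p = 0.0997 from edgeR). Zfp978 had 2.19, 2.59 and 2.58 in cKO, against 1.53, 0.74 and 1.56 in WT, and Zfp993 had 3.61, 3.71 and 3.63 in cKO, against 3.02, 2.72 and 3.25 in WT. Both lay above WT in all cKO libraries. They passed in the model of genotype only (log2 fold changes 1.16 and 0.64, adjusted p = 0.0233 and 0.0351 from edgeR). They did not pass in the model of batch and genotype (adjusted p = 0.115 and 0.108 from edgeR), nor by the batch term (adjusted p = 0.46 and 0.862). Zfp978 and Zfp993 share 82.8% and 95.2% of their words with other genes, and 7 of the 14 members of the cluster share at least 50%.

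The other clusters held fewer members. On chromosome 13 from 67186660 to 67835190 all 6 members were lower by the batch term, 3 with all cKO libraries below WT and 3 with cKO_2 and cKO_3 alone below. Zfp708 of this cluster, which is known to keep DNA methylation at RMER19B retrotransposons in the early embryo, had 3.57, 1.63 and 1.67 log2 CPM in cKO_1, cKO_2 and cKO_3, against 3.66, 3.65 and 3.51 in WT. It shares 94.5% of its words with other genes and overlaps Rslcan18. On chromosome 2 from 174485327 to 177720294, 5 of 8 members share at least 50% of their words with other genes. By the batch term 6 of the 8 were lower. Zfp967 had the largest such difference of all members, with 3.18 in cKO_1 and -0.95 and 0.37 in cKO_2 and cKO_3, against 1.94, 2.14 and 2.29 in WT (log2 difference -3.38, adjusted p = 0.00264 from edgeR), and it shares 99.1% of its words. On chromosome 6 from 47796198 to 48600161, where 3 of the 6 members have KRAB, 1 member was higher by the batch term and the others did not pass. This was Zfp746, the repressor PARIS, with 5.42, 5.88 and 5.82 in cKO_1, cKO_2 and cKO_3, against 5.55, 5.61 and 5.62 in WT (log2 difference 0.43, adjusted p = 0.0198 from edgeR). In other clusters, by the batch term, 5 of 8 members were lower on chromosome 7 from 41282627 to 43268550, 3 of 6 on chromosome 8 from 69661686 to 70243828 and 2 of 6 on chromosome 17 from 32984470 to 33252385. These counts lie near or below the 57.3% of all members that were lower. None was higher there in edgeR, where 1 member of the cluster on chromosome 8 was higher at an unadjusted p under 0.05. In the remaining 2 clusters of 4 members each, on chromosome 7 from 6134486 to 7212997 and from 126843239 to 127005998, no member passed by the batch term in edgeR. At an unadjusted p under 0.05, 1 member of the first was higher and 1 lower, and 0 of the second.

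Of 3 members with KRAB known from work on retroviral silencing, none passed as higher in cKO by the main test. Zfp932, which represses endogenous retroviruses of the ERVK class, had 5.63, 4.12 and 4.18 log2 CPM in cKO_1, cKO_2 and cKO_3, against 5.46, 5.39 and 5.39 in WT. It was lower in cKO_2 and cKO_3 than in cKO_1 (log2 difference -1.48, adjusted p = 6.38e-04 from edgeR), with a genotype coefficient of 0.22 (adjusted p = 0.17), and it shares 62.5% of its words with other genes. Zfp809, which with TRIM28 silences proviruses of the Moloney type through their primer binding site, had 4.54, 4.25 and 4.26 in cKO, against 4.65, 4.79 and 4.58 in WT. All cKO libraries lay below WT by a small margin, and neither the genotype coefficient (-0.14, adjusted p = 0.489 from edgeR) nor the batch term (-0.28, adjusted p = 0.172) passed. Zfp819, whose protein binds TRIM28, had 1.29, 0.93 and -0.04 in cKO and 1.53, 0.63 and 1.11 in WT, and the groups overlapped (adjusted p = 0.834).

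A further 6 members described next, most with a known role, have no KRAB. Zfp711, an X-linked factor that binds CpG-rich promoters, had 6.84, 5.91 and 5.86 log2 CPM in cKO_1, cKO_2 and cKO_3, against 7.07, 7.30 and 7.02 in WT. Zfp830, known from mouse embryos for a part in splicing and genome maintenance, had 4.81, 4.16 and 4.29 in cKO, against 5.0, 5.08 and 5.02 in WT. Both had all cKO libraries below WT. Both passed in the model of genotype only (log2 fold changes -0.86 and -0.58, adjusted p = 0.0441 and 0.0479 from edgeR). Neither passed in the model of batch and genotype (adjusted p = 0.15 and 0.241 from edgeR). By the batch term both were lower in cKO_2 and cKO_3 than in cKO_1 (log2 differences -0.96 and -0.59, adjusted p = 0.0025 and 0.011 from edgeR). Zfp706, which promotes exit from self-renewal in embryonic stem cells, had 6.77, 6.37 and 6.62 in cKO and 6.92, 6.68 and 6.93 in WT (adjusted p = 0.729). Zfp704 had 7.09, 7.54 and 7.29 in cKO and 6.96, 7.03 and 6.82 in WT (adjusted p = 0.412). Zfp768 had 4.79, 4.56 and 4.55 in cKO and 4.73, 4.84 and 4.83 in WT (adjusted p = 0.955). Zfp750, a regulator of epidermal differentiation, was near the filter at -0.13, 0.32 and -0.29 in cKO and -1.03, 0.26 and -0.45 in WT (adjusted p = 0.829). None of these 4 passed in the model of genotype only.

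Further members stood at the lower end over the 3 cKO libraries. Zfp872 had 0.93, 0.19 and 0.14 log2 CPM in cKO_1, cKO_2 and cKO_3, against 2.13, 3.10 and 2.13 in WT. The groups did not overlap, and WT_2 was the highest library (log2 fold change -1.64, standard error 0.485, adjusted p = 0.0594 from edgeR; -2.11, adjusted p = 0.0127 with genotype only). Zfp960 had 3.65, 2.02 and 2.16 in cKO, against 3.66, 4.13 and 3.76 in WT, with 89.0% of its words shared. Zfp940 had 2.38, 1.39 and 1.09 in cKO, against 2.96, 2.90 and 2.84 in WT. Neither passed the main test (adjusted p = 0.552 for Zfp960 and 0.167 for Zfp940), and Zfp940 passed with genotype only (log2 fold change -1.18, adjusted p = 0.036).

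The 236 Zfp genes with numbers under 700 were described for comparison. By the main test 20 were higher (8.47%) and 11 lower (4.66%), where 6.91% of all genes tested were higher and 9.24% lower. By the batch term 28 were higher (11.9%) and 74 lower (31.4%) in cKO_2 and cKO_3 than in cKO_1, where 15.8% of all genes tested were higher and 16.2% lower. Their median differences from the WT mean were 0.09, -0.25 and -0.28 in cKO_1, cKO_2 and cKO_3. The 114 of them with KRAB had medians of 0.13, -0.46 and -0.54, with 49 lower and 4 higher by the batch term, and the 118 without KRAB had medians of 0.08, 0.19 and 0.10, with 25 lower and 24 higher. The sign of each median by class was thus the same in the high-numbered and lower-numbered genes. Whether the size differed between them was not tested.

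The corepressors through which KRAB proteins act were described from a list of 25 genes. By the main test 1 was higher, Atrx (4.0% of the list), and 4 were lower, Hells, Setdb1, Hdac1 and Morc3 (16%), while 20 did not pass. Over all genes tested 6.91% were higher, 9.24% lower and 16.2% called in either direction. The total of 5 of 25 lies near that last share, while the share lower lies above 9.24% and the share higher below 6.91%. DESeq2 gave 1 higher and 7 lower of the 25, where 1651 of all 16632 genes tested were higher and 2205 lower. Whether the list differs from all genes was not tested. By the batch term 8 of the 25 were higher (32.0%) and 12 lower (48.0%), against 15.8% and 16.2% of all genes tested. Trim28, the direct partner of KRAB, had 8.27, 9.01 and 9.05 log2 CPM in cKO_1, cKO_2 and cKO_3, against 8.20, 7.91 and 8.27 in WT. The cKO_1 value equalled the highest WT value to 2 decimals, while cKO_2 and cKO_3 were higher than cKO_1 by the batch term (log2 difference 0.76, adjusted p = 0.00987 from edgeR), opposite to most members with KRAB. Setdb1 had 7.12, 7.13 and 7.02 in cKO, against 7.64, 7.81 and 7.65 in WT (log2 fold change -0.58, adjusted p = 0.0214 from edgeR). It was lower to a similar extent in each cKO library. Hells, a remodeller needed for DNA methylation, had 7.61, 6.24 and 5.62 in cKO, against 8.92, 8.97 and 8.90 in WT (log2 fold change -1.32, adjusted p = 0.018 from edgeR). Atrx, a remodeller of heterochromatin, had 8.27, 7.60 and 7.88 in cKO and 7.77, 7.64 and 7.50 in WT, and overlapped WT in cKO_2.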

How the data were processed

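RNA-Seq was available for whole testes of 3 cKO and 3 WT mice. The authors quantified stranded poly(A) reads against NCBI mouse transcripts, GRCm39 serving as decoy, in Salmon 1.2.0, and used tximport for sums per gene. The deposited expected counts (estimated counts per gene) were rounded, and the deposited log2 values are log2 CPM with TMM normalization and a prior count of 2, recomputed here to within 5.2e-14. The submitters' processing notes also list limma 3.46.0, edgeR 3.32.1, R 4.0.4 and bcl2fastq 2.20.

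The quasi-likelihood test of edgeR 4.0.16 (R 4.3.3) was run on the 16632 of 39253 genes with at least 0.5 CPM in at least 3 libraries, with TMM normalization, batch and genotype as terms, and Benjamini-Hochberg adjustment at 0.05. Alternatives used limma 3.58.1, DESeq2 1.42.0, other scalings and filters, and left-out libraries. Tables and figures were made with Python 3.11.15, numpy 2.4.6, pandas 2.3.3 and matplotlib 3.10.9. The fit was also run on simulated data with a batch shift and the same genotype change in every cKO library. Such data cannot show how it behaves where the genotype change differs between cKO mice.

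KRAB class came from translated GENCODE vM39 coding sequences: 40 residues of Zfp809, from residue 4 of the protein, were slid along the first 300 residues of each protein, and 14 or more identical residues counted as KRAB. Shared sequence was counted in words of 31 bases. The SD between libraries includes the difference between mice, and p values measure only the spread between these 6 mice.

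Values were given for up to 10 members each way with the smallest p among those passing, the 5 highest and 5 lowest by mean difference among those that did not overlap, members within 5 Mb of Tardbp and 16 genes listed for known roles, of which Zfp804a falls outside the symbol rule; other members were named after their values were seen. The members and lists were chosen with earlier results of these data known. The KRAB split, the clusters, the patterns across cKO libraries and the batch term were chosen after the values per library were seen. Markers of Leydig, peritubular myoid, endothelial and macrophage cells and of spermatogonia were also listed. By the main test, macrophage and myoid markers had 0 calls either way (2 and 0 higher at an unadjusted p under 0.05 in edgeR and 0 by DESeq2), Leydig, endothelial and undifferentiated spermatogonial markers had 1 higher each, and differentiating spermatogonial markers had 1 higher and 3 lower. By the batch term 4 of 7 macrophage, 3 of 11 undifferentiated spermatogonial and 1 of 6 Leydig markers were higher. Of 8 differentiating spermatogonial markers 1 was lower, and no other of these markers passed. The summed macrophage level was 172, 258 and 298 CPM in cKO_1, cKO_2 and cKO_3, against 157, 134 and 130 CPM in WT.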

Additional observations from a re-analysis of the deposited data

How the results depend on the processing

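The 12 higher and 4 lower members of the model of batch and genotype became 11 and 11 with genotype only, 18 and 5 with the batch 2 libraries only, 13 and 2 with library size only, 13 and 4 with DESeq2 size factors or without a filter, 15 and 5 in DESeq2, and 11 and 4 in limma-trend. Leaving out a library in either model gave 0 to 17 higher and 0 to 78 lower members. The lowest counts came without WT_2 in the model of genotype only (13 higher and 9 lower at an unadjusted p under 0.05 in edgeR), and the highest without cKO_1. The model of batch and genotype could not be fitted without cKO_1, the only cKO library of batch 2. Members with all cKO below all WT libraries numbered 23 to 86 with a library left out, 86 being without cKO_1. The share of all genes is given above for the main test and genotype only, and the count of all genes for DESeq2. It was not set beside the counts of the other settings, which show only how the calls moved. The median difference moved to -0.55 in cKO_2 among members with under 20% of shared words and to -0.66 in cKO_3 with library size only, a scaling that shifts the median of all kept genes to -0.08 in cKO_2 and -0.10 in cKO_3. By the batch term, 43 of the 81 members with under 20% of shared words were lower, and 2 members were higher with library size only. Restricting to those members was chosen after the data were seen, and the cause of these changes was not tested.

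No pairing by replicate number was seen (correlations of deviations -0.0945, -0.0649 and 0.0052 for numbers 1, 2 and 3). As cKO_1 was in another batch than cKO_2 and cKO_3, this check could miss a pairing. With the replicate block and the batch term 3 members were higher and 0 lower (4 lower at an unadjusted p under 0.05 in edgeR). With the replicate block and genotype only 8 were higher and 11 lower.

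Log2 fold changes of members with values in the text that changed sign in the model of genotype only, with the value with the replicate block and genotype only after it, were 0.129 and 0.116 for Zfp746, -0.113 and -0.215 for Zfp760, -0.317 and -0.361 for Zfp819, -0.587 and -0.773 for Zfp932, -0.0459 and -0.0601 for Zfp933, -0.583 and -0.792 for Zfp944, -0.0535 and -0.189 for Zfp945, -0.273 and -1.29 for Zfp967, -0.66 and -0.961 for Zfp979, -0.539 and -0.663 for Zfp980, -0.354 and -0.679 for Zfp982, -0.658 and -0.862 for Zfp984, -0.164 and -0.36 for Zfp985, -0.534 and -0.728 for Zfp987, -0.705 and -0.985 for Zfp988, -0.26 and -0.39 for Zfp991, and -0.424 and -0.548 for Zfp992. With the replicate block and the batch term the sign changed in Zfp768 (0.0551), Zfp819 (-0.234), Zfp960 (0.00259) and Zfp980 (-0.0776), and with the batch 2 libraries only in Zfp768 (0.00171). With a library left out in either model, values that changed sign ran from -0.192 to 0.239 for Zfp746, -0.0716 to 0.772 for Zfp750, -0.59 to 0.53 for Zfp760, -0.266 to 0.00867 for Zfp768, -0.655 to 0.418 for Zfp819, -1.28 to 0.244 for Zfp932, -0.229 to 0.258 for Zfp933, -1.34 to 0.31 for Zfp944, -0.621 to 0.685 for Zfp945, -2.34 to 1.16 for Zfp967, -0.317 to 0.821 for Zfp970, -1.6 to 0.353 for Zfp979, -1.13 to 0.348 for Zfp980, -1.34 to 0.638 for Zfp982, -1.4 to 0.207 for Zfp984, -0.925 to 0.792 for Zfp985, -1.35 to 0.543 for Zfp987, -1.59 to 0.31 for Zfp988, -1.06 to 0.0685 for Zfp990, -0.817 to 0.459 for Zfp991 and -0.984 to 0.335 for Zfp992. Of the 44 members with values in the text, 44 kept their direction and side of the threshold with DESeq2 size factors, 43 in limma-trend, where Zfp760 lost its call (0.513, adjusted p = 0.0571), and 43 in DESeq2. Zfp750, Zfp831 and Zfp972, with WT means below 0 log2 CPM, were nearest the filter and are the members that depth limits most.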
